A study of Mus musculus with 4 samples.

Results

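The cells described here are a small population of the embryonic mouse cerebellum marked by Grm5 and Bcl11b, taken from neurons that carry the transcription factor Meis2. They were picked cell by cell from the counts of unique molecular identifiers (UMIs, each standing for 1 captured RNA molecule). Cells entered with a minimum of 500 genes and of 1000 UMIs and no more than 10% of UMIs from mitochondrial genes, which kept 12546 cells. A gate for excitatory neurons of the cerebellar nuclei then required at least 2 Meis2 UMIs, more Meis2 than Pax6, and no Olig2, Tbr1 or Lmx1a, and 2495 cells passed it. Each of these gated cells had 5 sums of UMIs. Sum A adds Gria1, Col25a1, Cntnap4 and Sema3e, sum B adds Bnc2, Npnt, Cntnap5a, Vstm2l and Zfhx3, sum D adds Rflna, Hopx, Evx1, Lmcd1 and Fgf17, and sum E adds Foxp2, Spon1, Nr4a2 and Grik1. Sum C adds Grm5, Peg10, Magel2, Bcl11b and Nwd2, and a member is a gated cell with C of at least 2 and above the other 4 sums. This gave 176 members. Control replicate 1 had 16, control replicate 2 had 125, CKO replicate 1 had 26 and CKO replicate 2 had 9.

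The study asked what the Engrailed transcription factors En1 and En2 do in excitatory neurons of the cerebellar nuclei. All 4 libraries are 10x Genomics 3′ single-cell libraries of cerebellum at embryonic stage E14.5, from cells sorted for tdTomato. Controls were Atoh1-Cre/+; R26LSL-tdT/+, and the embryos of the En1/2 CKO (conditional knockout) carried both of these alleles together with En1lox/lox and En2lox/lox. Each genotype has 2 libraries, with several animals pooled in every library. The Cre recombinase and the tdTomato reporter are thus in both groups, and the deletion reaches only cells with a history of Atoh1 expression.

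The cerebellar nuclei send the output of the cerebellum to the brainstem and thalamus. Their excitatory neurons arise from Atoh1-expressing progenitors of the rhombic lip, migrate over the surface of the cerebellum and settle into medial, intermediate and lateral nuclei. Grm5 encodes a metabotropic glutamate receptor that acts through phospholipase C. Bcl11b encodes a zinc finger transcription factor that is also a subunit of the BAF chromatin remodelling complex. Peg10 and Magel2 are imprinted genes expressed from the paternal allele, and Nwd2 encodes a protein with NACHT and WD repeat domains.

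The libraries differed in depth, and no label gives a batch, so preparation and genotype cannot be told apart. They held between 14998150 and 33709450 UMIs, and the median kept cell held 2734 and 2122 UMIs in controls but 5352 and 5544 in CKO. Between 7 and 17 barcodes were shared by each pair of libraries, and none of these was a member in both. No label says which embryos or litters went into which library, so p-values measure only the spread between these 4 libraries.

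Members of the CKO libraries were shallower than the median kept cell of the same library. Their medians in control replicate 1, control replicate 2, CKO replicate 1 and CKO replicate 2 were 2935, 2456, 2483 and 4581 UMIs, against 2759, 2183, 3128 and 2280 in the other gated cells. Values for 4 libraries are given in this order below. The members of a library together held 49911, 364761, 107310 and 56348 UMIs in that order. Levels below are CPM, the UMIs of a gene per 1000000 UMIs of the summed cells. A gene with no UMI could therefore still stand at up to 60.1, 8.22, 28.0 and 53.2 CPM (3 counts, counting error only), and control replicate 2 is the most precise of the 4.

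The genes of sum C chose the members, so their values are a description with no test. Bcl11b (chromosome 12, 107910403 to 108003602, GRCm38, as are all positions here) had a UMI in 113 members, or 64.2%, against 14.1% of the other gated cells. Its UMIs in members numbered 32, 158, 39 and 13 by library. Grm5 (chromosome 7, 87584168 to 88134907) had a UMI in 78 members, or 44.3%, against 4.27% of the other gated cells. Bcl11b was therefore also present in many gated cells outside the members, while Grm5 was sparse there. In kept cells outside the gate, a UMI was found in 11.4% for Bcl11b and 3.67% for Grm5.

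The other 3 genes of the sum were in fewer members. Magel2 (chromosome 7, 62377010 to 62381640) had a UMI in 66 members (37.5%), against 5.52% of the other gated cells. Peg10 (chromosome 6, 4747306 to 4760517) had a UMI in 47 (26.7%, against 3.88%), and 34 of these cells came from control replicate 2. Nwd2 (chromosome 5, 63649102 to 63810546) had a UMI in 30 (17.0%, against 1.34%). In CKO replicate 2 only 1 of the 9 members had a Peg10 UMI, and 1 had Magel2. The plot of the selection genes shows these shares by library.

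**Figure D1:**
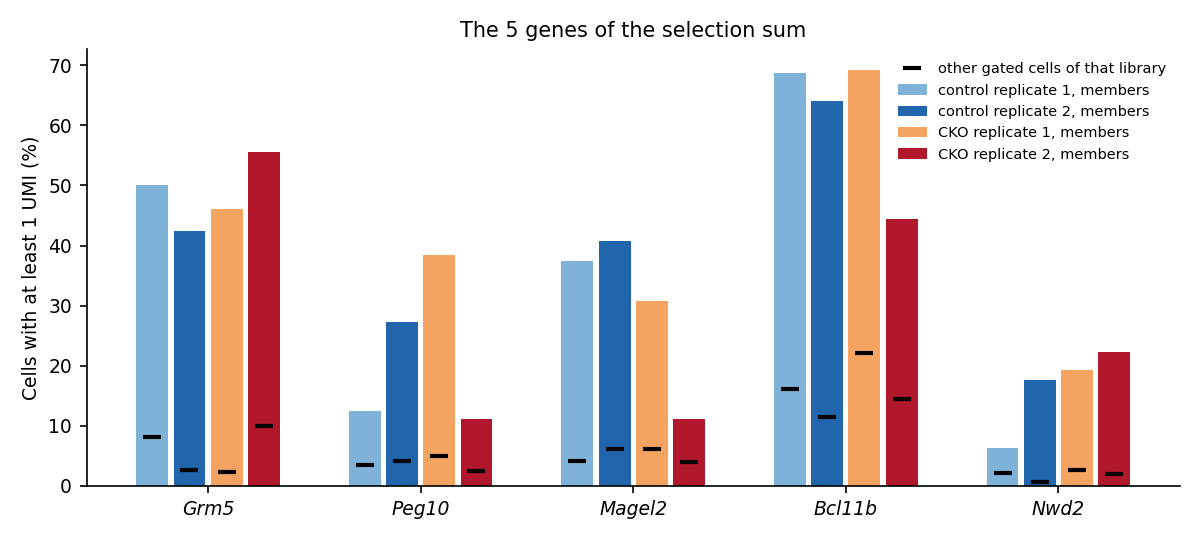
Share of cells (y axis, %) with at least 1 UMI of each gene of sum C, in members of the 4 libraries (bars) and in the other gated cells of the same library (black dashes). Bcl11b is in 44.4 to 69.2% of members and Grm5 in 42.4 to 55.6%; since these genes chose the members, the gap to the dashes is set by the rule.

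Most members were chosen on few UMIs and few genes. C was 2 in 66 members, 3 in 46, 4 in 26 and 5 or more in 38, with a median of 3 and a highest value of 17. In 55 members 1 of the 5 genes supplied all UMIs of the sum, 93 had 2 of the genes, 20 had 3, 7 had 4 and 1 had all 5. Bcl11b had the most UMIs of the 5 in 54 members, Grm5 in 36, Peg10 in 19, Magel2 in 12 and Nwd2 in 4, and the other 51 had a tie. Only 36 members had both Grm5 and Bcl11b, the genes that name the population.

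The threshold separated cells with nearly equal values. Just inside it, 48 members had a C only 1 above the next sum, and 74 had no UMI in any other sum. Just outside it, 80 gated cells had a single UMI in C and none in the other sums, 41 had a C of at least 2 that tied with another sum, and 123 had a C of at least 2 below another sum. Of the members with 2000 UMIs or more, which numbered 12, 94, 23 and 8, only 7, 66, 12 and 3 were still members after each cell was thinned to 2000 UMIs.

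Pooled over libraries, the genes of the sum also met in the same cells across the whole gate. This is a description, since the genes share depth. Among all gated cells, Bcl11b had a UMI in 29.4% of the 177 cells with Grm5 and in 16.7% of the 2318 cells without it. For Magel2 the shares with Bcl11b were 35.6% of 194 cells and 16.1% of 2301. Nwd2 was in 8.47% of the cells with Grm5 and in 1.98% of those without. Peg10 was in 15.8% of cells with Grm5 and 4.70% of cells without. In CKO replicate 2 alone, none of the 30 cells with Grm5 had Peg10 or Nwd2, against 3.06% of cells without Grm5 for each. Bcl11b was there in 16.7% of cells with Grm5 and 15.3% of cells without. With Magel2 it was in 45.5% of 11 cells, against 14.1% without.

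Most cells that met the condition on sum C lay outside the gate. Across all kept cells, 615 met the condition on C, and 176 of them (28.6%) were members. The share was 16.3% and 55.6% for the control libraries, and 20.2% and 5.52% for the CKO. Of the 615, 338 had fewer than 2 Meis2 UMIs and 60 had enough Meis2 but no more of it than of Pax6. The members are thus the gated part of a wider set of cells with a high sum C, and in CKO replicate 2 a small part of it.

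The label of excitatory cerebellar nuclei neurons was set beside marker lists. All 21 listed identity genes had UMIs in members, and Meis2 among them was required by the gate. A UMI alone does not set members apart, since all 10 granule lineage genes and all 6 genes of dividing cells had UMIs too. Slc17a6, the vesicular glutamate transporter of these neurons, had 28, 144, 29 and 18 UMIs and was found in 62.5% of members and 48.6% of the other gated cells. Lhx9, a LIM homeobox gene of these neurons, was in 64.2% of members, Meis1 in 71.0% and the neuronal tubulin gene Tubb3 in 99.4%. By level, Lhx9, Meis1 and Tubb3 each lay on both sides of the other gated cells. Lhx9 stood at 481, 543, 391 and 266 CPM in members against 383, 575, 669 and 358 CPM. Inhibitory markers were rare: the 10 GABAergic genes summed to 0, 27.4, 121 and 35.5 CPM, and Ptf1a, Skor2 and Slc6a5 had no UMI. The summed level in the other gated cells was 103, 66.2, 36.0 and 91.8 CPM.

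Markers of other cell types lay on both sides of their level in the other gated cells. The 10 granule lineage genes summed to 1583, 1028, 2059 and 2893 CPM, against 1755, 1412, 1976 and 2443 CPM in the other gated cells, and all 10 had UMIs in members. They were lower than in the other gated cells in both controls and higher in both CKO libraries. Progenitor and glial genes summed to 351 to 521 CPM against 457 to 873 CPM, with UMIs for 9 of 12 and none for Hes1, Hes5 or Sox10. The 6 genes of dividing cells all had UMIs and summed to 53.2 to 260 CPM against 232 to 705 CPM. Haemoglobin and other erythroid genes were lower in members than in the other gated cells in both controls, with 685 against 825 CPM in control replicate 2. They were higher in both CKO libraries, where members held 65.2 and 17.7 CPM. Choroid plexus genes had no UMI in members, and the unipolar brush, macrophage, endothelial and meningeal lists summed to at most 52.1 CPM in any library. The part of free RNA in the erythroid and granule levels was not tested.

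Genes outside the rule were next set beside the other gated cells of the same library. Every gene of these cells counts as used by a selection on their RNA, so these levels carry no test. Of 3874 genes with an average of 50 CPM or more over all gated cells, 313 (8.08%) were above the other gated cells in all 4 libraries and 447 (11.5%) below in all 4. Only 4 of them were at least 2-fold above in every library. With the floor set on the members' own level instead, 460 of 4002 genes (11.5%) were above and 315 (7.87%) below in all 4, so the balance depends on the floor, and the floor over all gated cells was chosen after the values were seen. The lists below are counted over their genes with 50 CPM or more over all gated cells.

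Some genes of transcription factors and chromatin proteins were higher in members. Bcl11a (chromosome 11, 24078056 to 24174123), the paralog of Bcl11b and like it a BAF subunit, stood at 922, 614, 457 and 515 CPM in members. The other gated cells held 266, 288, 219 and 279 CPM, so members were higher in all 4 libraries, by 3.47, 2.13, 2.08 and 1.85 times. Nr2f1 (chromosome 13, 78188973 to 78199757), a nuclear receptor gene that patterns the developing cortex, stood at 300.5, 461, 503 and 621 CPM against 131, 204, 142 and 166 CPM. The lowest member library was above the highest of the other gated cells for both genes. Of 19 BAF genes at that floor, without Bcl11b, 1 was above in all 4 libraries, which is Bcl11a, and none was below. The shares over all genes were 8.08% above and 11.5% below. Group E, which is the gated cells with sum E highest, held 357 CPM of Bcl11a and 297 CPM of Nr2f1 when pooled over libraries, against 602 and 470.3 CPM in pooled members.

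The 12 genes named by the highest lowest ratio all had 50 CPM or more on average in members. Kcnk9 (chromosome 15, 72501089 to 72546340), an imprinted potassium channel gene, had 29, 58, 10 and 7 UMIs in members and stood 9.76, 3.04, 3.72 and 3.26 times above the other gated cells. Pcdh10 (chromosome 3, 45378398 to 45435623), a protocadherin gene, had 15, 67, 8 and 7 UMIs and ratios of 3.02, 3.88, 3.40 and 4.78. Plxna2 (chromosome 1, 194618218 to 194816869), a semaphorin receptor gene, had 12, 124, 29 and 9 UMIs and ratios of 2.93, 2.41, 3.50 and 2.25. These genes were higher in every library, though the values outside control replicate 2 rest on few molecules. Zfp804a, with only 3, 20, 4 and 3 UMIs, had ratios of 3.07 to 6.83, and the copine gene Cpne4 had 2.83 to 5.85 with 5, 28, 5 and 4 UMIs. Mdga2, Nol3, Prag1, Shisa7, Cacna1e and Limch1 complete the 12 genes with the highest lowest ratio, each at 1.86 times or more in every library. Some of the 12 were about as high or higher in the 56 cells of group E. Pooled over libraries, group E held 173 CPM of Cacna1e, 97.3 CPM of Shisa7, 86.5 CPM of Mdga2 and 162 CPM of Pcdh10, against 51.9, 55.3, 39.8 and 168 CPM in members. The 12 genes were chosen by this ratio, so being higher than in the other gated cells was set by the choice. All but Nr2f1 and Plxna2 averaged under 50 CPM in the other gated cells. Zfp804a, for instance, averaged 51.4 CPM in members and 11.0 CPM there, so it met the floor through members. Not all were higher than in group E.

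Among the neuron identity genes more were below the other gated cells than above. Of 18 at the floor, without Meis2, 2 were above in all 4 libraries (Slc17a6 and Ebf3) and 5 below (Lhx2, Pou3f2, Pou3f3, Nhlh1 and Nhlh2). Over all genes at the floor 8.08% were above and 11.5% below, so more were below there too. Whether the list differs from all genes was not tested. Lhx2, a LIM homeobox gene, stood at 120, 85.0, 28.0 and 160 CPM in members against 216, 233, 390 and 305 CPM. Pou3f2, a POU domain gene, stood at 341, 280, 475 and 302 CPM against 493, 452, 657 and 490 CPM. Both were lower in each library, with ratios of 0.07 to 0.56 for Lhx2 and 0.62 to 0.72 for Pou3f2. Lhx9, the relative of Lhx2, was on both sides, with ratios of 1.25, 0.94, 0.59 and 0.74.

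Imprinted genes were tried as a list because 2 of them helped choose the members. Of 18 others at the floor, 6 were above the other gated cells in all 4 libraries and none below. The 6 were Ndn, Meg3, Rian, Nap1l5, Ppp1r9a and Kcnk9. Meg3 (a maternally expressed noncoding RNA) was the most abundant, at 5870, 3896, 3672 and 4951 CPM against 3762, 2456, 1151 and 2549 CPM. Ndn, a neighbour of Magel2, stood at 581, 855, 401 and 390 CPM against 493, 475, 393 and 315 CPM, a difference of under 1.3 times in all but control replicate 2. Group E held more Meg3 than members, at 8252 CPM against 4127 CPM pooled over libraries. Whether the 6 of 18 differ from the 8.08% of all genes was not tested.

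Axon guidance genes lay on both sides. Of 27 at the floor, 6 were above in all 4 libraries (Robo1, Robo3, Plxna2, L1cam, Ncam1 and Chl1) and 4 below (Dcc, Nrp1, Epha4 and Efnb1). The shares over all genes were 8.08% above and 11.5% below, and the difference from them was not tested. Robo3, a receptor that commissural axons need to cross the midline, stood at 922, 592, 485 and 728 CPM against 407, 482, 390 and 582 CPM. Dcc, a netrin receptor, was lower, at 321, 323, 391 and 550.2 CPM against 618, 687, 625 and 806 CPM. Chl1, a cell adhesion gene, had ratios of 1.29, 2.38, 2.95 and 2.98, and Robo1 had 1.75, 1.80, 2.26 and 1.04. The receptors of this list thus split in direction.

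Signalling partners of Grm5 and synaptic genes showed little beyond single members. Of 6 genes of group I metabotropic glutamate signalling at the floor, 1 was above in all 4 libraries, the scaffold gene Shank1, and none was below. Of 4 glutamate receptor genes at the floor, 1 was above (Grin2b) and none was below. Grin2b, an NMDA receptor subunit gene, stood at 321, 140, 103 and 195 CPM against 139, 78.3, 21.5 and 58.9 CPM. Of 18 presynaptic genes, 1 was above (Nsf) and 2 were below (Syt4 and Syt11), and of 6 p53 and apoptosis genes none was above and 1 was below (Mcl1). Beside these lists stand the shares over all genes, 8.08% above and 11.5% below.

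The genes furthest below were also described, by the mirror of the rule for the highest and after their values had been seen. Pde1c, a phosphodiesterase gene, had 5, 37, 12 and 8 UMIs in members and ratios of 0.26, 0.36, 0.38 and 0.35. Armh4 had 0, 13, 1 and 1 UMIs, with ratios of 0.31, 0.07 and 0.17 in the 3 libraries with a UMI. Top2a and Cks2, genes of dividing cells, were at most 0.49 times the level of the other gated cells in the libraries with a UMI. Top2a had 2, 7, 6 and 0 UMIs in members, or 15 in all, and Cks2 had 1, 6, 5 and 0. In CKO replicate 2 a gene with no UMI could still stand at up to 53.2 CPM. The other gated cells there held 92.7 CPM of Top2a and 31.2 CPM of Cks2, so a lower Cks2 level is not shown there. These genes had 50 CPM or more on average in the other gated cells and were chosen by this ratio. Being lower in members was therefore set by the choice.

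**Figure D2:**
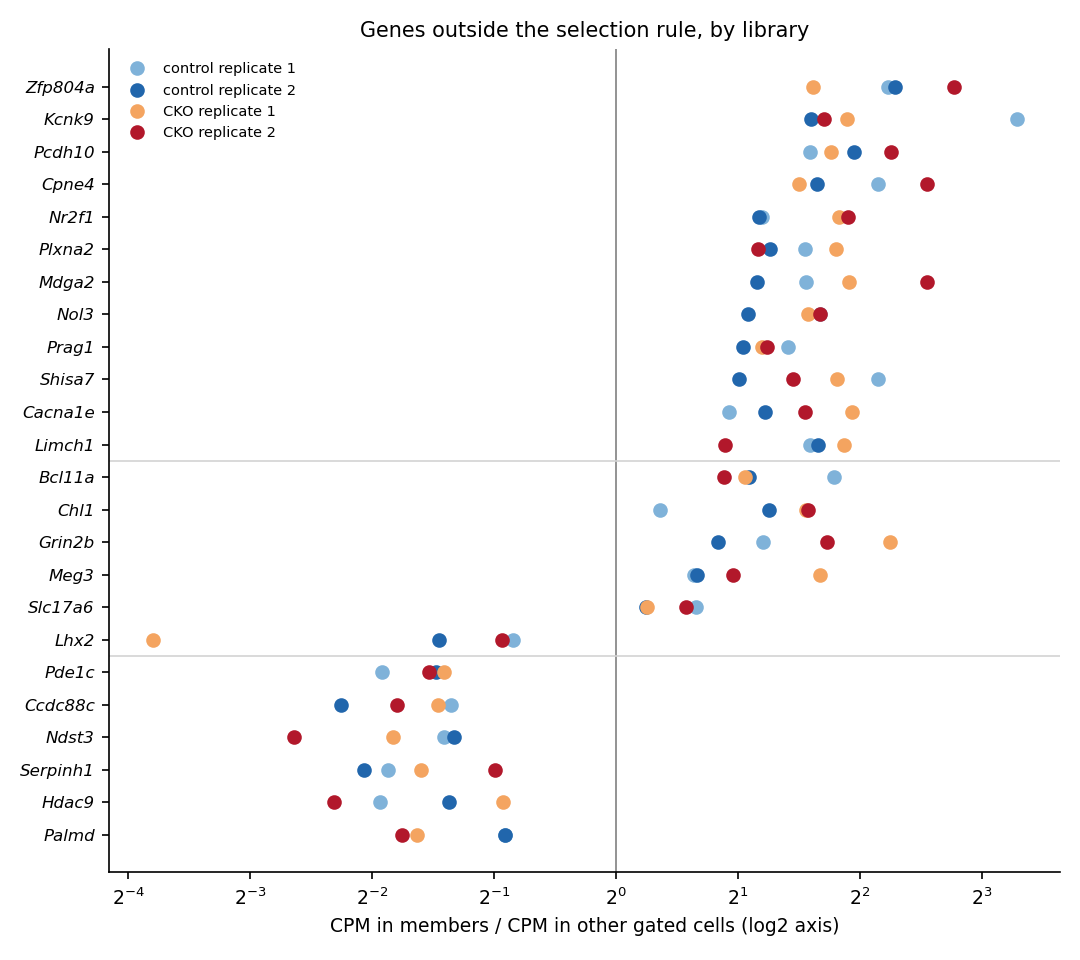
Ratio of CPM in members to CPM in the other gated cells (x axis, log2 scale) for each library, for the 12 genes outside the rule with the highest lowest ratio (top), 6 genes from the lists (middle) and the lowest genes that had a UMI in all 4 libraries (bottom). The points of Zfp804a to Limch1 all lie above 1.8 and those of Pde1c all lie below 0.4; genes are shown without a test.

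The same genes were followed across the threshold, pooled over the libraries. Nr2f1 stood at 153 CPM in the 1728 gated cells with no UMI in C, 248 CPM in the 80 cells just below the threshold, 309 CPM in the 41 tied cells, and 471 and 470.0 CPM in members with C of 2 and of 3 or more. Bcl11a stood at 254, 312, 471, 466 and 662 CPM over the same 5 sets. Lhx2 ran the other way, at 292, 147, 142, 95.3 and 80.0 CPM. Pooled, the cells just outside the threshold lay between cells with no UMI in C and members with a C of 3 or more for these 3 genes. In control replicate 2 alone the tied cells were not between for Nr2f1, at 204 CPM in 19 cells against 207 CPM with no UMI in C. Pde1c was not between when pooled either, with 347 CPM at no UMI, 395 CPM just below the threshold, 228 CPM in tied cells and 185 and 72.5 CPM in members.

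**Figure D3:**
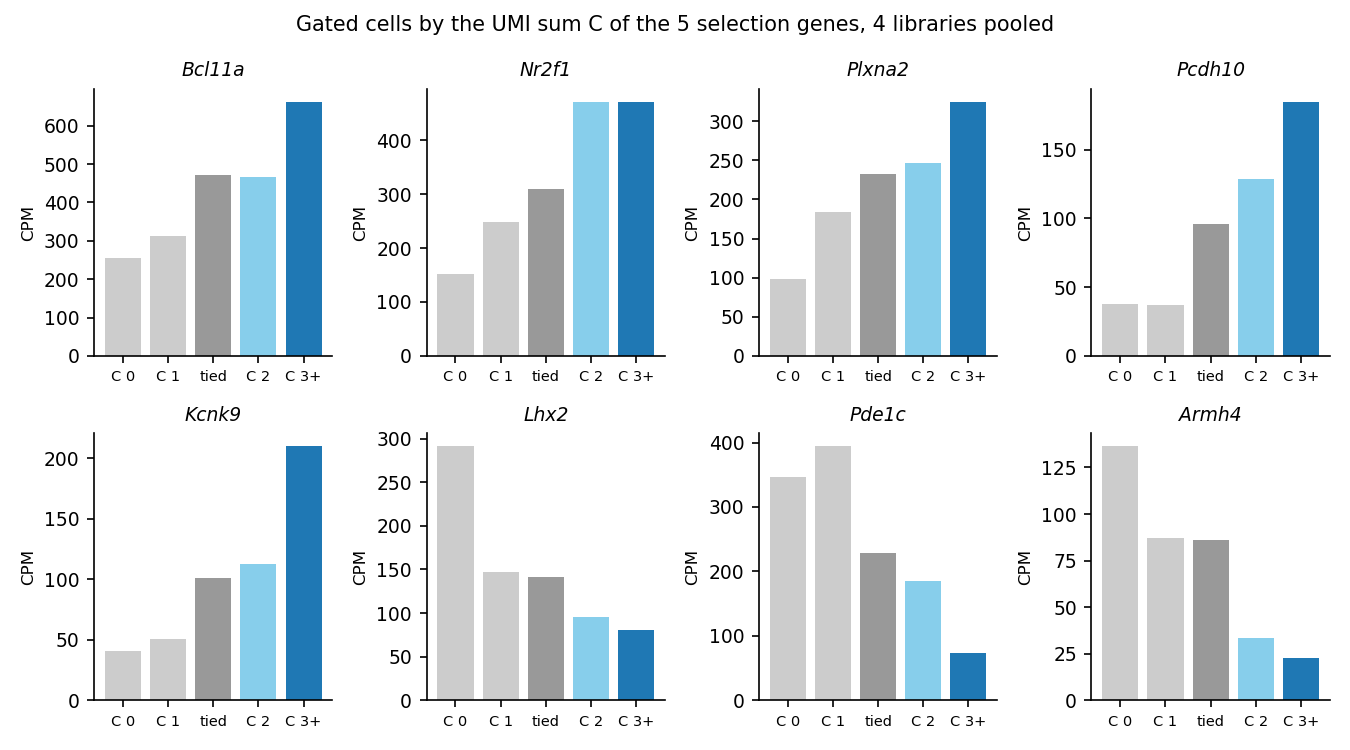
Pooled CPM (y axis) of 8 genes outside the rule in gated cells with no UMI in sum C, with 1 UMI and no other sum, with C of at least 2 tied with another sum (grey), and in members with C of 2 and of 3 or more (blue), over all 4 libraries. Kcnk9 goes from 41.0 to 210.0 CPM and Armh4 from 137 to 22.5 CPM.

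Whether members resemble each other outside the rule was described by their nearest neighbours. Within each library the 15 closest gated cells were found by correlation over 1000 variable genes, without the genes of the rule. Of the neighbours of members, 12.9%, 19.4%, 20% and 10.4% were themselves members, by library. Members made up 3.98%, 8.54%, 7.01% and 3.47% of the gated cells, and 3.44%, 9.03%, 5.20% and 4.03% of the neighbours of other gated cells. Members were thus more often beside members than their share, in all 4 libraries, and most of their neighbours were other gated cells. Cells with sum B highest, the largest such group, had 41.3 to 56.9% of their neighbours within their own group, which held 27.8 to 44.0% of the gate. Group E had 13.3, 12.6, 23.3 and 12.7%, against shares of 2.24, 1.78, 2.70 and 4.25%. Cells with sum D highest had 22.6, 12.4, 68.3 and 48.6%, against 6.47, 3.90, 27.8 and 14.3%. Cells with sum A highest had 8.48 and 3.81% in controls, against 5.47 and 1.91%, and 0% among the few CKO cells. Being beside the own group more often than its share was thus not particular to members.

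The first question across genotypes was how many members each library held. Members were 3.98% of the gated cells in control replicate 1 (95% Wilson interval 2.46 to 6.37%), 8.54% in control replicate 2 (7.22 to 10.1%), 7.01% in CKO replicate 1 (4.83 to 10.1%) and 3.47% in CKO replicate 2 (1.84 to 6.47%). Controls thus averaged 6.26 ± 3.23% and CKO libraries 5.24 ± 2.50% (SD, n = 2 each). Each genotype had a high and a low library, and the groups overlapped. The log2 ratio of CKO to control was -0.28 (SE 0.56, adjusted p 0.751, edgeR quasi-likelihood test on numbers of cells over the 6 groups of gated cells). An exact permutation test of the 4 shares gave p = 0.667, two-sided, where 0.333 is the smallest it allows.

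The sign of this difference rested on single libraries. It became 0.43 when control replicate 2 was left out and 0.11 when CKO replicate 2 was. In the same test the group with sum D highest was called higher in the CKO (log2 2.07, SE 0.54, adjusted p 0.0143), from 5.18 ± 1.82% to 21.0 ± 9.53% of gated cells (SD, n = 2 each). The group with sum A highest was called lower (log2 -2.40, SE 0.81, adjusted p 0.0357), on 3 and 1 cells in the CKO libraries. The exact permutation test gave p = 0.333 for each of these 2 groups, the smallest it allows. Median UMIs in cells with sum D highest were 4046.5 and 3080 in controls and 13662 and 10723 in the CKO, and the part of depth was not tested. Whether the members' ratio differs from those of A and D was not tested.

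**Figure D4:**
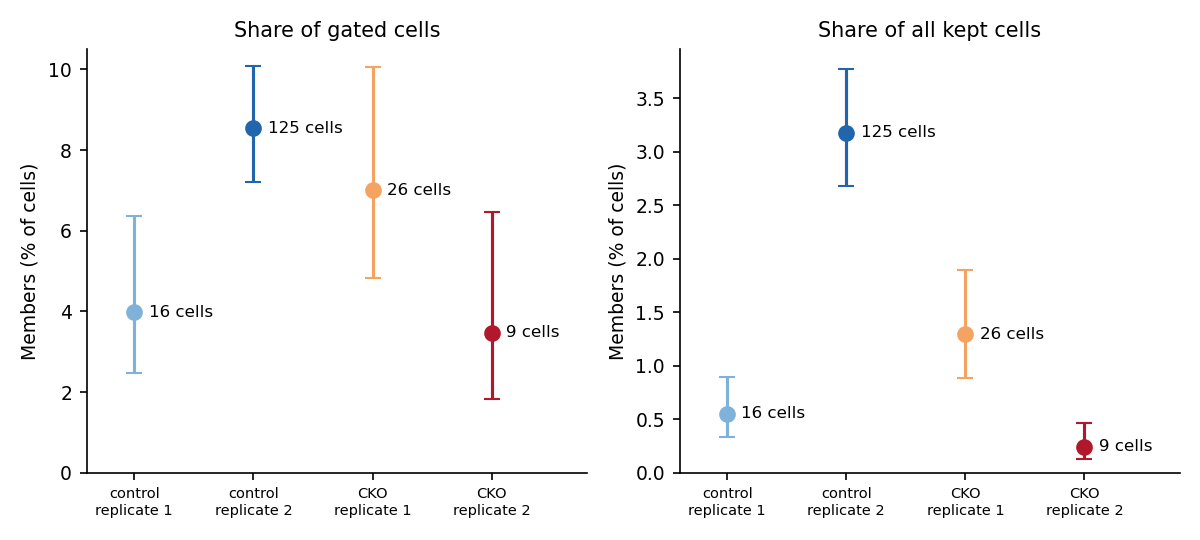
Members as a share of gated cells (left) and of all kept cells (right), in % of cells, for each library, with 95% Wilson intervals that cover counting error only. The control libraries at 3.98 and 8.54% of the gate enclose the CKO library at 7.01%, and both groups overlap on both denominators.

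Against all kept cells control members were 0.550 and 3.18% and CKO members 1.30 and 0.243%. This gives 1.86 ± 1.86% and 0.769 ± 0.744% (SD, n = 2 each), a difference smaller than the spread. The log2 ratio was then -1.31 (adjusted p 0.311, edgeR). Gated cells themselves numbered 402 of 2911 kept cells in control replicate 1, 1463 of 3931 in control replicate 2, 371 of 2007 in CKO replicate 1 and 259 of 3697 in CKO replicate 2. Control replicate 2 thus supplied most of the gate, and 125 of the 176 members.

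The deleted genes were read first among the genes. En2 (chromosome 5, 28165694 to 28172166) had 16 and 67 UMIs in control members, in 9 and 41 cells, and 2 and 0 UMIs in CKO members. The other gated cells stood at 261, 198, 63.5 and 41.6 CPM by library. En2 was lower in both CKO libraries in both sets of cells, with a log2 difference of -4.13 in members (SE 0.78, adjusted p 0.0143, edgeR quasi-likelihood test) and -2.04 in the other gated cells (SE 0.27, adjusted p 0.0327). The fitted value in members depends on the prior count, and pooled over libraries the CKO level was 0.0611 of the control level (exact counting interval 0.00727 to 0.228). The difference between members and other gated cells did not pass (log2 -2.36, adjusted p 1.00, edgeR interaction).

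En1 (chromosome 1, 120602418 to 120607992) had 35, 187, 32 and 24 UMIs in members, or 701, 513, 298 and 426 CPM. Both CKO libraries were below both controls. The log2 difference was -0.76 (SE 0.35, adjusted p 0.440, edgeR), which did not pass. En1 in the other gated cells stood at 563, 514, 365 and 840 CPM (log2 0.19, SE 0.33, adjusted p 0.863, edgeR), with the CKO libraries on both sides of the controls. The difference between members and other gated cells did not pass for En1 (log2 -0.86, edgeR interaction). Counts come from 3′ ends, and the files do not place them within the gene, so En1 does not test its own deletion.

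The comparison of all genes in members was planned only for libraries with at least 10 members, and CKO replicate 2 had 9. It was run all the same, after the numbers of members had been seen, and its calls carry that limit. Of 1728 genes tested, 8 (0.463%) had an adjusted p under 0.05 (edgeR quasi-likelihood test on summed counts), 5 higher and 3 lower in the CKO. Unadjusted, 184 had a p under 0.05. DESeq2, with another count filter, tested 7689 genes and called 0, with 93 under 0.05 unadjusted. Both CKO libraries were above both controls for 369 genes (21.4%) and below for 318 (18.4%). In the other gated cells 14 of 10921 genes (0.128%) were called.

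Single libraries decided these calls. Without control replicate 2, or without CKO replicate 1, 1 gene was called, and without CKO replicate 2 there were 45. With C of at least 3 none of 1326 genes was called. The calls below are given with the number of cells that carried the gene.

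Of the genes called higher, Barhl1 and Draxin are known from the developing cerebellum and its axons. Barhl1 (chromosome 2, 28907679 to 28916668), a homeobox gene of the granule lineage and of some cerebellar nuclei neurons, had 4, 22, 29 and 23 UMIs, in 3, 16, 9 and 2 cells. It rose, with member levels of 80.1, 60.3, 270.2 and 408 CPM (log2 2.30, SE 0.45, adjusted p 0.0198, edgeR). In the CKO libraries 12 of 29 and 15 of 23 UMIs came from 1 cell each. The other gated cells held 230, 140, 347 and 391 CPM, a difference that did not pass there (adjusted p 0.130, edgeR).

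Draxin (chromosome 4, 148098437 to 148130698), a secreted repellent of axons, had 9, 61, 67 and 28 UMIs, in 7, 42, 17 and 6 cells. It rose from 174 ± 9.25 to 561 ± 90.1 CPM (SD, n = 2 each; log2 1.69, SE 0.36, adjusted p 0.0267, edgeR). A single CKO replicate 1 cell held 30 of the 67 UMIs. That cell, the deepest member of all with 19644 UMIs, supplied 18.3% of the member UMIs of its library. It also held 16 Pvalb, 12 Barhl1, 18 Mdk, 22 Rpl29 and 44 Rps2 UMIs, with 14 of Meis2, 5 of Pax6 and none of Slc17a6. In the other gated cells Draxin stood at 332, 200, 609 and 608 CPM, also higher in both CKO libraries (log2 1.25, adjusted p 0.0855, edgeR).

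The other genes called higher were Pvalb, Mdk and Rpl29. Pvalb, which encodes the calcium buffer parvalbumin, had 3, 16, 46 and 12 UMIs (log2 2.79, SE 0.49, adjusted p 0.0143, edgeR). They lay in 3, 15, 4 and 2 cells. In 1 cell each lay 28 of the 46 UMIs of CKO replicate 1 and 11 of the 12 of CKO replicate 2. The deepest member of CKO replicate 1 held another 16 of the 46. Mdk, the gene of the growth factor midkine, had 3, 29, 42 and 14 UMIs, in 3, 23, 10 and 4 cells (log2 2.08, SE 0.44, adjusted p 0.0267, edgeR). Of its CKO UMIs, 18 of 42 and 10 of 14 lay in 1 cell each. Rpl29, a gene of the large ribosomal subunit, had 13, 33, 58 and 28 UMIs, in 7, 28, 13 and 6 cells (log2 1.94, SE 0.43, adjusted p 0.0430, edgeR). The Rpl29 value was 0.99 without control replicate 2, and 1.96 in the other gated cells (adjusted p 0.0868, edgeR). Pvalb and Mdk also had positive values in the other gated cells (log2 1.11 and 0.98, adjusted p 0.237 and 0.127, edgeR). Without the deepest member of each library 8 genes were again called, and Mdk, Rpl29 and Draxin were no longer among them (adjusted p 0.0874, 0.0874 and 0.0857, edgeR), while Pvalb and Barhl1 were.

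Besides En2, Sst and AC149090.1 were called lower. Sst (chromosome 16, 23889573 to 23890958), the gene of the neuropeptide somatostatin, had 10, 125, 2 and 3 UMIs, in 8, 29, 2 and 1 cells. Members dropped from 272 ± 101 CPM in controls to 35.9 ± 24.5 CPM (SD, n = 2 each; log2 -3.25, SE 0.59, adjusted p 0.0143, edgeR), and 42 of the 125 UMIs in control replicate 2 lay in 1 cell. AC149090.1, a gene ID not matched in GENCODE M21, had 33, 241, 14 and 16 UMIs, in 14, 98, 9 and 6 cells (log2 -1.81, SE 0.38, adjusted p 0.0267, edgeR). This gene was carried by most members of the controls, and the level in the other gated cells was 722, 508, 83.8 and 289 CPM. The plot of the called genes gives all 8.

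**Figure D5:**
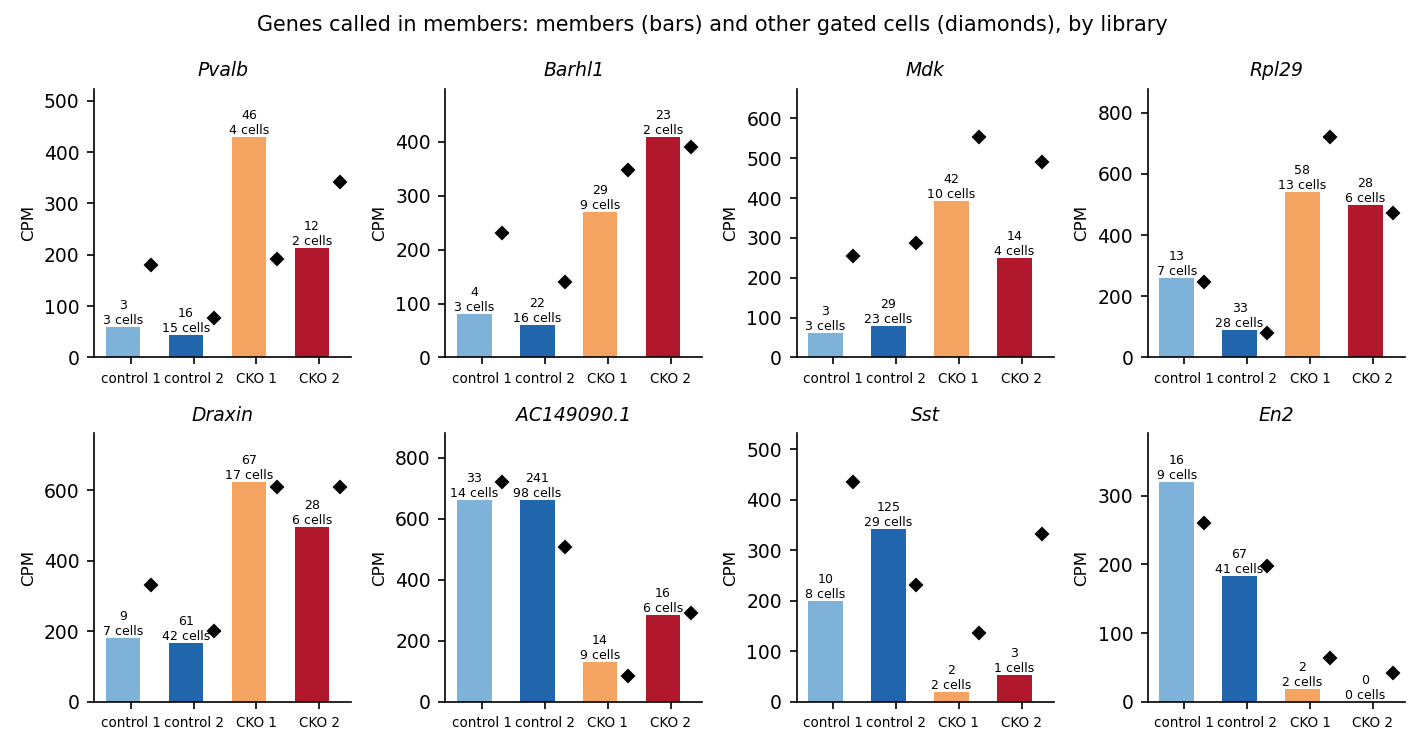
CPM (y axis) of the 8 genes called in members, by library, in members (bars) and in the other gated cells of that library (diamonds); above each bar stand the UMIs and the cells that carried them. Both CKO bars lie above both control bars for 5 genes and below for 3, and few CKO cells carry Pvalb (4 and 2), Barhl1 (9 and 2) and Sst (2 and 1).

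Genes just short of the threshold filled the naming rule and were not called. Rps2 (1.58, adjusted p 0.0561), Enc1 (1.53, adjusted p 0.0917) and Cited2 (1.56, adjusted p 0.109) had higher values in the CKO on the log2 scale (edgeR). Slitrk1, a synaptic adhesion gene, had 11 and 58 UMIs in control members and 3 and 1 in the CKO (log2 -2.84, adjusted p 0.0783, edgeR). Gm4258, Dnm1l, Ank2 and Aplp1 had lower values, between -2.21 and -1.13, with adjusted p of 0.134 to 0.199 (edgeR).

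Of the 12 genes with the highest ratios to the other gated cells, the 4 that could be tested did not pass the test between genotypes. Nr2f1 stood at 381 ± 113 CPM in control members and 562 ± 83.4 CPM in CKO members (SD, n = 2 each; log2 0.42, SE 0.34, adjusted p 0.765, edgeR), and the value was -0.31 with C of at least 3. Plxna2 stood at 290 ± 70.4 and 215 ± 78.2 CPM (log2 -0.48, SE 0.40, adjusted p 0.767, edgeR). Kcnk9 (log2 -1.51, SE 0.57, adjusted p 0.286) and Pcdh10 (log2 -1.24, SE 0.49, adjusted p 0.333, edgeR) had lower CKO values in both libraries. In the other gated cells Kcnk9 and Pcdh10 also had lower values (log2 -0.82 and -1.54, adjusted p 0.237 and 0.0978, edgeR). The other 8 of the 12 genes did not reach the count needed for the test.

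Few list genes were called between genotypes. Over all 1728 genes the median log2 difference was -0.02. Of 12 identity genes tested of 20 none was called, with a median of -0.08, and the lowest p was that of Ebf2 (log2 -1.04, SE 0.43, adjusted p 0.359, edgeR). Of 13 imprinted genes tested of 32 none was called (median -0.20), and of 13 BAF genes of 27 none (median -0.33). Of 18 axon guidance genes tested of 50, 1 was called, Draxin, with a median of 0.02. Of 10 presynaptic genes tested of 26 none was called (median -0.17).

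Of 6 granule lineage genes tested of 9 listed besides Pax6, 1 was called (Barhl1), 5 had positive values and the median was 1.04, against 0.54 over the 9 genes in the other gated cells. Zic1, a zinc finger gene, stood at 441, 293, 792 and 834 CPM in members (log2 1.21, SE 0.34, adjusted p 0.134, edgeR). Pax6, which is part of the gate and so carries no test, stood at 140, 112, 289 and 302 CPM. The part of other cells' RNA in these values was not tested. Of the lists with under 5 genes tested, the 3 p53 and apoptosis genes had a median of 0.39, the 4 metabotropic signalling genes 0.01 and the 3 glutamate receptor genes -0.13, with none called.

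Whether the genotype acted differently in members than in the other gated cells was tested by an interaction term with the library as a block. Of 9584 genes 3 (0.0313%) were called, and 250 had an unadjusted p under 0.05. Sst was one: its log2 difference was -3.25 in members and -0.48 in the other gated cells, and the difference between them was -2.88 (SE 0.64, adjusted p 0.0332, edgeR). The other gated cells held 436, 232, 137 and 333 CPM of Sst. Leaving out any library ended the call, with differences of -3.50 to -1.63 and adjusted p of 0.123 to 1.00 (edgeR).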

How the data were processed

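Each library was deposited as 1 matrix of raw UMI counts, written by Cell Ranger 5.0.0 per the file headers. The submitters' processing notes name mm10. The annotation is not given in the sources used here. Coordinates are those of GENCODE M21 (GRCm38), which held 32158 of the 32285 gene IDs, matched by ID.

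The members and gene lists were chosen with earlier results of these data known. UMI counts were summed per library over members and over the other gated cells, and these sums went into the quasi-likelihood F test of edgeR 4.0.16 (with limma 3.58.1, R 4.3.3; filterByExpr and TMM), two-sided, with Benjamini-Hochberg adjustment over all genes tested and a threshold of 0.05. The 10 members per library planned as a minimum were lowered to 5 after the counts of members were seen. Genes of the rule stayed in the fit and were not counted. Shares were tested by edgeR on numbers of cells with the gated cells as offset. The exact permutation test used scipy 1.17.1 (Python 3.11.15). Some single-gene values of the marker and pathway lists are not reported here. Doublets were kept. In an alternative the highest simulated-doublet scores were removed, 0.8% of cells per 1000, which took 1 member.

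Named genes are the list genes that passed or had the lowest p in their list, up to 8 genes each way among those with at least 20 CPM and both CKO libraries on one side, the 12 genes with at least 50 CPM and the highest lowest ratio, the rule genes, En1 and En2. List genes given by level alone were picked after their values were seen. On simulated counts the members' test called 14.5% of tested genes changed 2-fold and 100% of those changed 8-fold, with 3 unchanged genes called of 1848 fitted. DESeq2 1.42.0 was an alternative. Other alternatives were each library left out, thinning to 2000 UMIs, only cells of 4000 UMIs or more with no more than 5% from mitochondrial genes, C of at least 3, other size factors, no count filter, other denominators and the replicate number as a block.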

Additional observations from a re-analysis of the deposited data

Results flagged for a closer look

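The effect of genotype differed between members and other gated cells for 3 genes in the edgeR interaction test. For Sst the log2 difference of the effects was -2.88 (SE 0.64, adjusted p 0.0332). For Zfp318 it was 2.45 (SE 0.51, adjusted p 0.0183, edgeR), and members stood at 80.1, 68.5, 83.9 and 1367 CPM by library, with 72 UMIs of CKO replicate 2 in 1 cell. Without CKO replicate 2 the Zfp318 value was 0.19 (adjusted p 0.997, edgeR). For Olfr655 it was 5.47 (SE 1.25, adjusted p 0.0403, edgeR), with 15 UMIs in CKO replicate 1, all in its deepest member, and 2 UMIs in the other 3 libraries together. Without CKO replicate 1 the Olfr655 value was -5.04 (adjusted p 0.956, edgeR).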

How the results depend on the processing

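The share of members kept a negative log2 ratio (-0.28 as reported) except without control replicate 2 (0.43), without CKO replicate 2 (0.11) and with TMM factors (0.0200), and it passed the threshold under none of its 12 alternatives. Left-out libraries gave -0.895 to 0.43. The value was -0.70 after thinning, -1.08 in cells of 4000 UMIs or more with no more than 5% from mitochondrial genes (intact cells), and -0.23 with a replicate block. Genes called in members (8) numbered 1 to 45 with a library left out, 0 with C of at least 3, 17 with the replicate block, 13 with no count filter and 0 by DESeq2. In other gated cells (14) there were 22 to 1323 with a library left out, 9 in intact cells, 22 with doublets removed, 31 with the replicate block and 371 with no count filter. The interaction (3) gave 0 to 1 with a library left out, 0 with no count filter and 1 without the deepest members. The value of Nr2f1 was -0.31 with C of at least 3. Over the named genes in members, 178 other values kept their direction and their side of the threshold, 38 lost the call and 11 gained it. The causes were not tested. A group left with 1 library is assumed to vary like the other. The replicate numbers do not pair the libraries in the labels, and the deviations of same-numbered libraries correlated at 0.0101 in members and -0.20 in other gated cells. Fits of members after thinning and in intact cells were not run, since a library had 3 and 2 members. On simulated counts, 8.16% of tested 2-fold changes were called in the other gated cells, so most changes of that size would be missed by 2 libraries against 2.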
